A study of Mus musculus with 12 samples.

Results

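Adipocyte nuclei of the mouse depot labelled iBAT were compared between a library titled 2 months and a library titled 6 months, both from male C57BL/6J mice kept at 22 °C on normal chow. Nuclei were stained with 7-AAD, sorted, and sequenced with 10x Genomics 3′ v3.1 chemistry, which counts unique molecular identifiers (UMIs) of single nuclei. The labels state the age of the 6-month library as 16 weeks and that of the 2-month library as 8 weeks, so the ages are named here as titled. Levels are also given from an iBAT library of 1 month at 22 °C (stated age 4 weeks), from one of 6 months after 3 days at 4 °C, called cold here, and from the 2- and 6-month libraries at 22 °C of the depots labelled mPRAT and lPRAT, all from male C57BL/6J mice on normal chow. Of these further libraries, those titled 2 months have a stated age of 8 weeks and those titled 6 months one of 16 weeks. How many animals each library holds is not given in the sources used here. Each age is 1 library with no replicate, so a difference between the libraries holds age together with animal, dissection and library preparation, and these cannot be told apart. All intervals below are 95% intervals that cover counting error only, exact except for that of the difference in adipocyte share, which combines the exact intervals of both shares.

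Nuclei with 300 or more genes, and with mitochondrial UMIs making up 10% or less, were kept. It was taken as an adipocyte when the UMIs of Adipoq, Plin1, Plin4, Lipe, Cidec and Acsl1 summed to at least 3 and exceeded the sum of Flt1, Ptprb, Lama2, Dcn, Mrc1 and Ptprc. The members were thus chosen by measured values, and the contrast itself was selected on earlier results of these data, so every value below is a description with no test. The rule gave 10297 adipocyte nuclei of 12497 kept nuclei at 2 months and 18769 of 21115 at 6 months, or 29066 of 33612 in both libraries. The same rule found 74816 adipocyte nuclei among 106898 kept nuclei of all 12 libraries of the series.

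Brown adipocytes hold many small lipid droplets and many mitochondria, and burn fuel for heat through UCP1, a carrier that lets protons back into the mitochondrial matrix without making ATP. Noradrenaline acting through β-adrenergic receptors switches heat production on, and the cells are fed by lipolysis, by lipoproteins and glucose from the blood, and by fatty acids that they make themselves. Fatty acid synthesis runs from citrate, which ATP citrate lyase splits into acetyl-CoA, through acetyl-CoA carboxylase to fatty acid synthase.

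The adipocyte share of kept nuclei was 82.4% (81.7 to 83.1) at 2 months and 88.9% (88.5 to 89.3) at 6 months, a difference of 6.49 percentage points (5.70 to 7.29). Sorting and depth can set such a share. The median adipocyte nucleus held 1531 UMIs at 2 months and 2307 at 6 months, and the adipocyte nuclei held 20656032 and 51794117 UMIs in all. With nuclei thinned to 1000 UMIs and shallower ones left out, the difference was 4.08 points. That setting held 9465 kept nuclei at 2 months and 18020 at 6 months, so it changed both depth and the nuclei counted. Counted only over nuclei that the rule assigned to either side, the difference was 1.57 points. At the threshold, 470 nuclei at 2 months and 500 at 6 months held exactly 3 adipocyte UMIs, while 402 and 377 held 2 and were left out. The libraries shared 72 barcodes, 0.575% of the smaller, and 53 of these were adipocyte nuclei in both.

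Of the 6 genes that chose the nuclei, Adipoq, the gene of adiponectin, measured 119 counts per 1000000 UMIs (CPM) at 2 months and 121 CPM at 6 months. Lipe, the gene of hormone-sensitive lipase, measured 1159 CPM and 1105 CPM. Plin1, which coats the lipid droplet, measured 814 CPM and 1069 CPM. Plin4, another droplet coat protein, measured 488 CPM and 249 CPM, and Cidec, which fuses droplets, measured 612 CPM and 346 CPM. Outside the adipocyte class Adipoq measured 13.1 CPM and 16.9 CPM and Plin1 84.2 CPM and 154 CPM. These levels follow from the rule, since its genes chose the nuclei.

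Nuclei of 2 further kinds sat inside the adipocyte class and differed in number between the libraries. Skeletal muscle RNA was the first. At least 5 UMIs of the 8 muscle markers Ttn, Myh4, Myh1, Ckm, Acta1, Neb, Tnnt3 and Mylpf were found in 201 adipocyte nuclei at 2 months (1.95%, 1.69 to 2.24) and in 8 at 6 months (0.0426%, 0.0184 to 0.0840). Another 31 and 4 nuclei held 3 or 4 such UMIs, and 1729 and 319 held 1 or 2. In the 201 nuclei Ttn, the gene of the sarcomere protein titin, measured 51154 CPM, and as Ttn is 1 of the markers this follows from how the nuclei were picked. Leaving these nuclei out did not remove all muscle RNA, since the 7 measured markers were still lower by 2-fold or more at 6 months without both kinds of nuclei described here, with a median log2 ratio of -3.96 against -6.64. The muscle markers summed to 2888 CPM over all adipocyte nuclei at 2 months, 19.04 CPM at 6 months, 517 CPM at 1 month and 19.7 CPM after cold.

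Nuclei with RNA of the white-adipocyte genes Cyp2e1, a cytochrome P450, and Slc7a10, an amino acid carrier, were the other kind. Among adipocyte nuclei with fewer than 5 muscle UMIs, 713 of 10096 at 2 months (7.06%, 6.57 to 7.58) and 200 of 18761 at 6 months (1.07%, 0.924 to 1.22) held 2 or more UMIs of these 2 genes together. Thinned to 1000 UMIs a nucleus, the shares were 5.20% and 0.379%. The cut was not sharp, since 628 and 337 nuclei held a single such UMI and 227 and 94 held 2 or 3. These nuclei had a median of 2869 UMIs at 2 months and 4251 at 6 months, against 1469 and 2295 in nuclei below the cut, and they are a range of a score and not a cell type. At 2 months they measured 80.3 CPM of Ucp1 where the nuclei below the cut measured 579 CPM. Their level of Nnat, the imprinted neuronatin gene, was 1424 CPM against 42.7 CPM. Both kinds are described as they are, and results that rest on them are given with and without them. Leaving them out was chosen after seeing the data, and which tissue the nuclei came from was not tested.

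**Figure D1:**
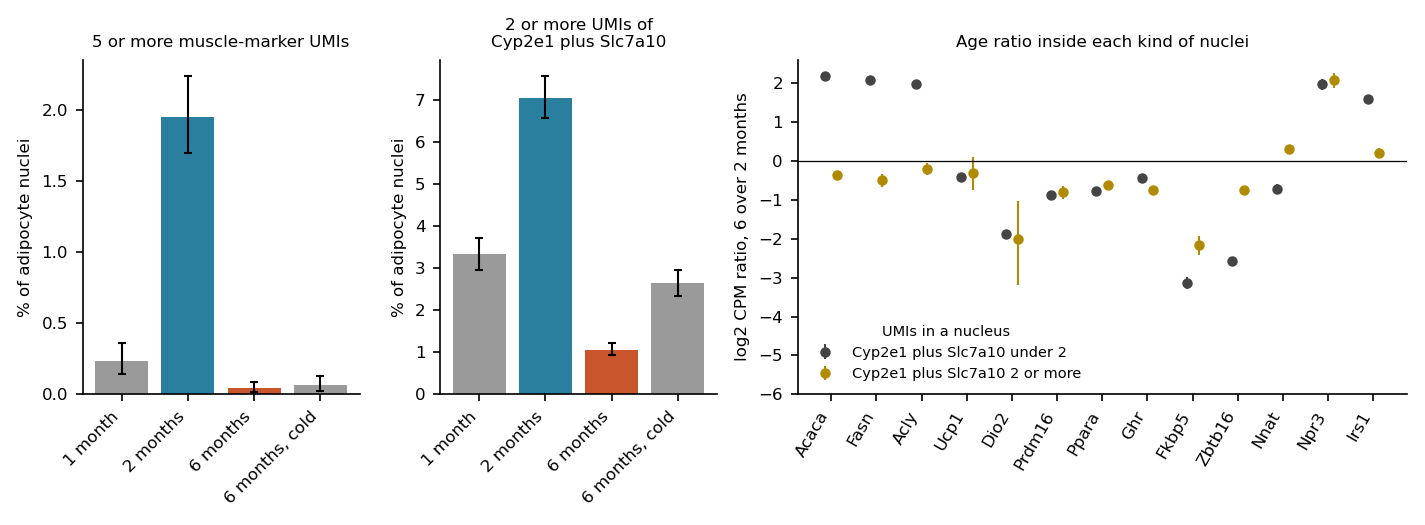
Left and middle, the percentage of adipocyte nuclei with 5 or more muscle-marker UMIs and with 2 or more UMIs of Cyp2e1 plus Slc7a10 in the 4 iBAT libraries, with exact 95% intervals as bars. Right, the log2 CPM ratio of 6 over 2 months inside nuclei under the Cyp2e1 plus Slc7a10 cut and at or above it, with 95% counting intervals. Both shares were highest at 2 months, at 1.95% and 7.06%, and Acaca stood at 2.18 below the cut and at -0.37 above it.

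Counts were summed over the adipocyte nuclei of each library and 10104 genes had a mean of at least 5 CPM. Of these, 535 genes (5.29%) were higher by 2-fold or more at 6 months and 510 genes (5.05%) were lower by 2-fold or more. These shares are the background for the counts of members given below. As the same contrast chose what is described, nothing is read from a list's share against them. The median log2 ratio of all 10104 genes was 0.05. Without the muscle nuclei and the Cyp2e1 and Slc7a10 nuclei, 653 genes were higher and 362 lower of 9921. Of the genes first counted, 485 of 535 higher and 372 of 510 lower were still past 2-fold then, so 27.1% of the lower genes were lost.

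Gldn led the 15 named genes that were higher at 6 months. It encodes gliomedin, a protein known from the node of Ranvier, and lies at chr9:54286486-54341786 on GRCm38. Gldn measured 6.58 CPM (5.52 to 7.79) at 2 months and 81.2 CPM (78.8 to 83.7) at 6 months, a 12.3-fold ratio. Mpped2 followed at 5.37 CPM and 46.4 CPM, then Rims2, a scaffold of secretory release sites, at 5.86 CPM and 49.3 CPM. Their 2-month levels rest on few counts, with 136 UMIs of Gldn, 111 of Mpped2 and 121 of Rims2 in all adipocyte nuclei. Outside the class Mpped2 measured 13.9 CPM at 2 months and 10.0 CPM at 6 months, and Rims2 8.18 CPM and 12.6 CPM. At 2 months both were thus higher outside, and they met the conditions for naming through the 6-month library.

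Ryr2, the calcium release channel best known from heart muscle, measured 13.7 CPM at 2 months and 81.8 CPM at 6 months. Its ratio was 5.99-fold and stood at 2.37 on the log2 scale without both kinds of nuclei, against 2.58 with them. Ttc25 measured 9.83 CPM and 68.5 CPM, and Fam57b 36.6 CPM and 207 CPM. Fam57b encodes a ceramide synthase-like membrane protein. Kit, the receptor for stem cell factor, measured 32.7 CPM and 136 CPM.

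Tmem45b had the highest 6-month level of the 15, with 196 CPM (190 to 202) at 2 months and 810 CPM (802 to 818) at 6 months. Its log2 ratio of 2.05 became 2.73 without both kinds of nuclei. The other members of the group were Rab11fip4, Slc2a9, Gprin3, Gm28905, Tsku, Camk2b and Tmem131l, with log2 ratios between 2.08 for Tmem131l and 2.41 for Rab11fip4. Slc2a9 encodes a urate carrier and Tsku a secreted protein known from liver and fat. All 15 kept a 2-fold difference without both kinds of nuclei. The sixteenth gene by the same order had a log2 ratio of 2.03.

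The 15 named genes that were lower at 6 months fell into groups by the nuclei that held them. Hs3st5, Gm49906, Ttn, Xirp2 and Jph2 had the lowest ratios of the 15, from -8.22 for Hs3st5 to -4.93 for Jph2 on the log2 scale. Genes had to be at least 2 times higher in adipocyte than in outside nuclei to be named, which cut 6325 eligible genes to 1625. Of all genes past 2-fold, 282 of the 535 higher and 140 of the 510 lower met this condition. Among eligible genes with ratios at least as extreme as the 15th named gene, it left out 36 lower and 9 higher ones. Some of those left out had lower ratios, such as Mylk4, a myosin kinase gene, at -10.47 and Myh4, a myosin heavy chain gene, at -8.69. Ttn measured 2320 CPM at 2 months and 11.2 CPM at 6 months. Xirp2 and Jph2 encode proteins of the muscle sarcomere and of its calcium-release junctions. The 201 muscle-marker nuclei held most of this RNA. Without both kinds of nuclei Ttn measured 69.1 CPM at 2 months and 2.03 CPM at 6 months. Ctnna3, which joins cadherins to the cytoskeleton in muscle, and Phkg1, a subunit of muscle phosphorylase kinase, were the 2 genes of the 15 that lost their 2-fold difference in that setting, at -0.27 and -0.20.

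Cyp2e1 and Slc7a10, which define the Cyp2e1 and Slc7a10 nuclei, were among the lower genes. Chst1 and Clstn2, which the cut did not use, were lower too and measured more in these nuclei. Chst1 measured 271 CPM in these nuclei and 6.75 CPM in the others at 2 months. Clstn2 measured 241 CPM and 13.5 CPM in the same way. Over all adipocyte nuclei Chst1 measured 39.7 CPM at 2 months and 4.58 CPM at 6 months. Without both kinds of nuclei the log2 ratios were -1.74 for Chst1 and -1.67 for Clstn2.

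Genes that were lower without resting on either kind of nuclei were Gm17167, Cntfr, Col7a1 and Prodh. Cntfr, the receptor subunit for ciliary neurotrophic factor, measured 169 CPM (164 to 175) at 2 months and 19.3 CPM (18.1 to 20.5) at 6 months, and 182 CPM and 18.8 CPM without both kinds. It lies at chr4:41657498-41697089. After thinning, 14.9% of adipocyte nuclei held a Cntfr UMI at 2 months and 2.05% at 6 months, and outside the class 3.40% and 3.02% did, so the 6-month adipocyte share was not above that outside. This and the later shares of adipocyte nuclei with a UMI leave out the muscle-marker nuclei. Gm17167, a transcript with no known function, measured 210 CPM and 15.3 CPM. Col7a1, the anchoring-fibril collagen, measured 40.6 CPM and 7.51 CPM. Prodh, the first enzyme of proline breakdown, measured 53.9 CPM and 10.6 CPM. Naming was repeated after leaving out both kinds, with Cyp2e1, Slc7a10 and the muscle markers also barred from being named. Gm17167, Cntfr and Col7a1 then led the lower genes. Chd3, a chromatin remodeller, Kcnd2, a potassium channel, Klf15 and Dio2 came among the 15.

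**Figure D2:**
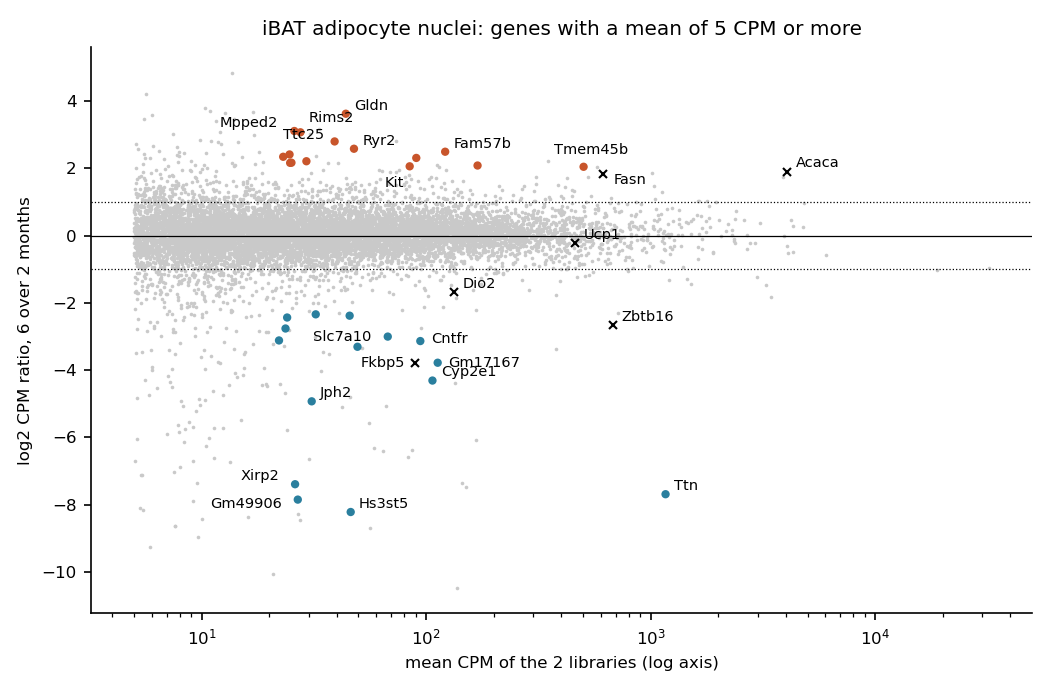
Each grey point is 1 of the 10104 genes with a mean of 5 CPM or more, with the mean CPM of both libraries on a log axis and the log2 CPM ratio of 6 over 2 months in adipocyte nuclei. Coloured points are the 15 named genes in each direction, crosses are 6 genes described below, and dotted lines mark 2-fold. Gldn stands highest among the named genes at 3.63 and Hs3st5 lowest at -8.22.

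Genes of fatty acid synthesis were higher at 6 months. Of 17 genes in the list 15 were measured above the minimum, 5 were higher by 2-fold or more, none was lower, and 14 had a ratio above 1. Their median log2 ratio was 0.68 with all adipocyte nuclei and 0.93 without both kinds, where 7 passed 2-fold. Acly, ATP citrate lyase, measured 241 CPM (234 to 248) at 2 months and 814 CPM (806 to 821) at 6 months. Acaca, acetyl-CoA carboxylase and the committed step of the pathway, measured 1711 CPM and 6417 CPM. Fasn, fatty acid synthase, measured 267 CPM and 957 CPM. The 3 consecutive enzymes thus differed by similar factors, 3.38-fold for Acly, 3.75-fold for Acaca and 3.58-fold for Fasn.

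Of the downstream enzymes Scd1 and Elovl6 differed by less than 2-fold and Scd2 by 3.26-fold. Scd1, the desaturase that makes oleate, measured 495 CPM at 2 months and 879 CPM at 6 months. Elovl6, which lengthens palmitate, measured 865 CPM and 1491 CPM. Scd2 was low in both libraries, at 7.60 CPM and 24.8 CPM. Pnpla3, a lipid droplet acyltransferase and hydrolase regulated with lipogenic genes, measured 335 CPM and 756 CPM. The transcription factors of the pathway differed by less than 2-fold. Srebf1 had a log2 ratio of 0.58 and Mlxipl, the gene of ChREBP, one of 0.21. Acacb, the mitochondrial carboxylase isoform whose product restrains fatty acid oxidation, was the only measured member with a ratio below 1, at -0.21.

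The difference in Acaca, Fasn and Acly was found in nuclei below the Cyp2e1 and Slc7a10 cut and not above it. Below the cut Acaca measured 1425 CPM at 2 months and 6481 CPM at 6 months, and above it 4100 CPM and 3183 CPM. Fasn measured 227 CPM and 967 CPM below the cut, and 617 CPM and 436 CPM above it. At 2 months the nuclei above the cut held the higher levels of both, and at 6 months the lower. Thinned to 1000 UMIs, 67.3% of adipocyte nuclei other than the muscle-marker nuclei held an Acaca UMI at 2 months and 98.5% at 6 months. Fasn was found in 21.02% and 60.1% and Acly in 17.8% and 51.3%. In nuclei outside the adipocyte class the Fasn share was 3.80% and 26.5%, so it was also higher at 6 months there. The thinned adipocyte nuclei had held medians of 1761 and 2489 UMIs. Whether free RNA, doublets or expression in the outside nuclei themselves gave these UMIs was not tested.

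Among nuclei of the 6-month library with a Ucp1 UMI after thinning, Acaca, Fasn and Acly summed to a mean of 8.04 UMIs a nucleus, and without a Ucp1 UMI to 8.37. At 2 months the same means were 1.66 and 2.44. Both sums were higher at 6 months. A nucleus thinned to 1000 UMIs can hold Ucp1 RNA and show no UMI of it, and 5.80% and 4.17% of the nuclei outside the class showed one, so the split does not separate nuclei that express Ucp1 from those that do not.

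Of 18 thermogenic genes 17 were measured, 2 were higher and 2 lower by 2-fold or more, 8 had a ratio above 1, and the median log2 ratio was -0.22. Without both kinds of nuclei none was higher and 2 were lower by 2-fold or more, 5 had a ratio above 1, and the median was -0.38. Ucp1 measured 497 CPM (487 to 506) at 2 months and 425 CPM (419 to 431) at 6 months, a log2 ratio of -0.22. Dio2, the deiodinase that makes active thyroid hormone inside the cell, was the member with the clearest difference in adipocytes. It measured 202 CPM (196 to 209) at 2 months and 63.7 CPM (61.5 to 65.9) at 6 months, a 3.18-fold lower level. Its ratio was -2.01 in the Cyp2e1 and Slc7a10 nuclei and -1.87 in the rest. Ckmt2, a creatine kinase of muscle and brown fat, measured 15.4 CPM and 0.309 CPM, and in nuclei of neither kind 0.931 CPM and 0.295 CPM, so most of its RNA lay in the muscle-marker nuclei.

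Of the regulators of the brown programme Prdm16 and Ppara were lower by less than 2-fold. Prdm16, which sets brown fate, measured 2006 CPM at 2 months and 1230 CPM at 6 months. Ppara, which drives genes of fatty acid use, measured 7220 CPM and 4801 CPM. Ppargc1a, the coactivator of mitochondrial biogenesis, measured 1069 CPM and 1091 CPM and Ebf2 2047 CPM and 2050 CPM. Without both kinds of nuclei Ppargc1a measured 1220 CPM and 1106 CPM, so its direction turned. Cidea, a droplet protein of brown fat, was at 865 CPM and 1196 CPM. Acot11, an acyl-CoA thioesterase, and Cox7a1, a cytochrome oxidase subunit, were the 2 higher members, at 1.16 and 1.12 on the log2 scale, and both came just under 2-fold without both kinds of nuclei, at 0.99 and 0.94. Outside the adipocyte class Cox7a1 measured 5.72 CPM at 2 months and 25.1 CPM at 6 months, so it was also higher by 2-fold or more there.

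The promoters of members on both sides were searched for the cyclic AMP response element, TGACGTCA, and for the E-box CACGTG that clock and ChREBP-type factors can bind. Each is its own reverse complement, so both strands were read at once. They are shown because the genes stand on opposite sides of the age comparison and because Dio2 and Pnpla3 carry the same element. In RefSeq promoters of GRCm38.p6, from 250 bases before the start to 50 after it, TGACGTCA was in 1.79% of 32851 promoters and CACGTG in 7.15%. Among promoters of genes higher by 2-fold or more 2.31% held TGACGTCA and 7.12% held CACGTG, and among lower genes 3.83% and 8.47%. Promoters of all genes tested held them in 3.07% and 10.1%. TTATGTAA (TTACATAA on the other strand) and CACCCCAC (GTGGGGTG) were also searched, and were in 0.938% and 2.87% of all promoters, 0.385% and 2.50% of those of higher genes and 0.605% and 3.23% of those of lower genes. Capitals mark the match. Pnpla3, chr15:84167566-84167865 on the plus strand, has TGACGTCA starting 46 bases before the start. Dio2, chr12:90738989-90739288 on the minus strand, has it 95 bases before. Klf15, chr6:90462326-90462625 on the plus strand, has CACGTG at 228, 172 and 3 bases before. Fkbp5, chr17:28486100-28486399 on the minus strand, has it 169 bases before. Both Klf15 and Fkbp5 were lower and are described further down.
Pnpla3: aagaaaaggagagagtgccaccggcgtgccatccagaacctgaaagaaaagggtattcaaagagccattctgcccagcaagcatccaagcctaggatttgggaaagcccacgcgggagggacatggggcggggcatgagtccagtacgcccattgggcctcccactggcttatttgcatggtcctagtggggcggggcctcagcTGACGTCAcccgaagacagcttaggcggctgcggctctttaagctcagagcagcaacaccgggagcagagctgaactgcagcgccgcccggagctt
Dio2: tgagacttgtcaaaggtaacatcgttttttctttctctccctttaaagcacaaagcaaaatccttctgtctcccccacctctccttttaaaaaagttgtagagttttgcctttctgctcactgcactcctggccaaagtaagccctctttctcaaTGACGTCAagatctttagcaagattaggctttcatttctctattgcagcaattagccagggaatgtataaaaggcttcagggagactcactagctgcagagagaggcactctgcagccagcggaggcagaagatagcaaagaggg
Klf15: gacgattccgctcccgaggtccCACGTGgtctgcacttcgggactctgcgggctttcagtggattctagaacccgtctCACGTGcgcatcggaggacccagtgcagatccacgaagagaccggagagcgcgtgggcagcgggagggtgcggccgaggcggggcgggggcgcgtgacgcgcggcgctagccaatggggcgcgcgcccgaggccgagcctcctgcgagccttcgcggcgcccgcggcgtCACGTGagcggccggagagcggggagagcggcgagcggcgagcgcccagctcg
Fkbp5: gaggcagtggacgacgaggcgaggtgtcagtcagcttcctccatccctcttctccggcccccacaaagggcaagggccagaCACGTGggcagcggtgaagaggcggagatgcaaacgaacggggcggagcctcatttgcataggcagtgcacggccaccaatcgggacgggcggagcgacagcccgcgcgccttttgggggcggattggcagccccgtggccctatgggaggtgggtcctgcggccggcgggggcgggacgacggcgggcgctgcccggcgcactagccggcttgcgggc

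A match describes letters in the window and not a site in use. Of 14 lipogenic genes with a promoter in the table, Elovl5, Mlxipl and Slc25a1 held CACGTG and Elovl5 and Pnpla3 held TGACGTCA. Fasn, Acly and Acaca held neither in this window.

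**Figure D3:**
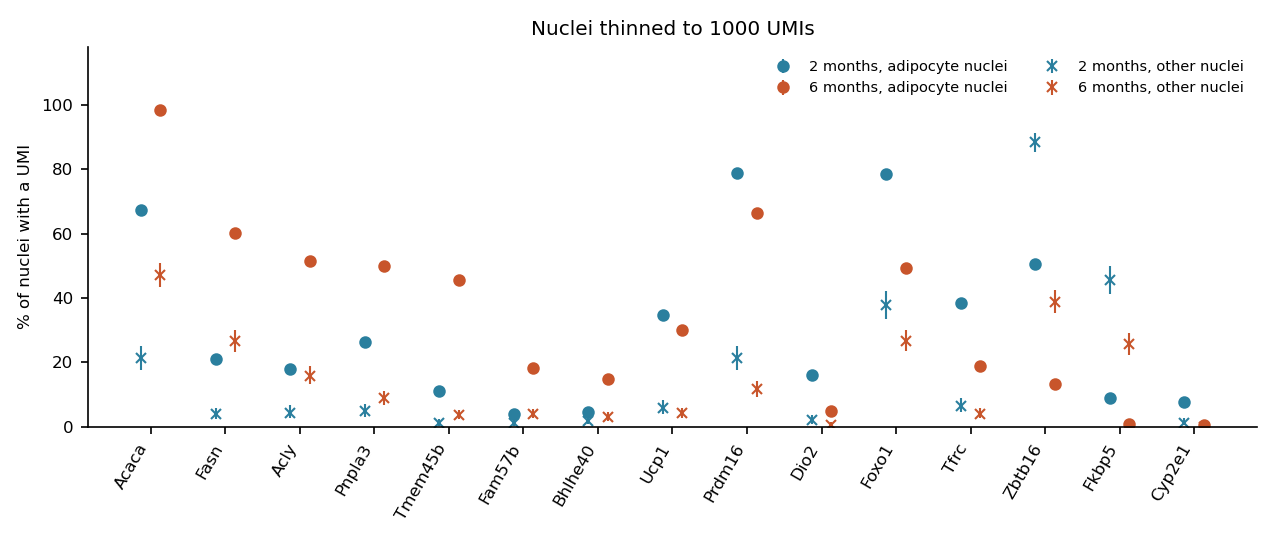
Percentage of nuclei with at least 1 UMI of each gene after thinning to 1000 UMIs, at 2 and 6 months, in adipocyte nuclei (circles) and in nuclei outside the class (crosses), with exact 95% intervals. The adipocyte nuclei here leave out the muscle-marker nuclei. Fasn moved from 21.02% to 60.1% and Foxo1 from 78.4% to 49.3% of adipocyte nuclei, and the crosses give the share in other nuclei, which for Zbtb16 and Fkbp5 was above that in adipocyte nuclei.

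Glucose use was higher in part. Of 22 genes 21 were measured, 3 were higher by 2-fold or more and none lower, with a median of 0.34. Pygl, a glycogen phosphorylase, measured 142 CPM at 2 months and 474 CPM at 6 months. Pkm, pyruvate kinase, measured 148 CPM and 339 CPM, and Hk1, a hexokinase, 11.6 CPM and 30.9 CPM. The insulin-regulated glucose carrier Slc2a4 measured 103 CPM in both libraries, and Hk2 measured 855 CPM and 863 CPM. In the citrate cycle list 1 of 20 genes passed 2-fold. It was Pdk1, a kinase that switches off pyruvate dehydrogenase, at 13.2 CPM and 37.1 CPM. Pdk4, which does the same, measured 412 CPM and 716 CPM.

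Insulin and growth hormone signalling held differences in both directions, with 2 of 23 measured genes higher and 6 lower by 2-fold or more and a median of -0.25. Without both kinds of nuclei 3 were higher and 3 lower. Foxo1, the transcription factor that insulin excludes from the nucleus, measured 2056 CPM (2036 to 2075) at 2 months and 839 CPM (831 to 847) at 6 months. The log2 ratio was -1.29, and -1.41 without both kinds of nuclei. The share of nuclei with a Foxo1 UMI after thinning was 78.4% and 49.3%. Irs1, the insulin receptor substrate, went the other way, from 217 CPM to 461 CPM, and Grb14, which binds and inhibits the insulin receptor, from 56.0 CPM to 157 CPM. Insr, the receptor itself, measured 660 CPM and 552 CPM. Akt1 measured 22.2 CPM and 9.96 CPM while Akt2, the isoform that serves insulin in fat, measured 343 CPM and 330 CPM.

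Several lower members of this group rested on the Cyp2e1 and Slc7a10 nuclei. Ghr, the growth hormone receptor, measured 4178 CPM at 2 months and 1789 CPM at 6 months over all adipocyte nuclei. In the nuclei below the cut it measured 2188 CPM and 1619 CPM, a log2 ratio of -0.43 in place of -1.22. Igf1, a growth hormone target, was at -1.21 over all adipocyte nuclei and at 0.19 without both kinds, where its direction turned. Grb10, an imprinted inhibitor of insulin signalling, came to -0.69 from -1.71. Socs2, the feedback inhibitor of growth hormone signalling, kept -1.75 against -1.78.

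Genes that glucocorticoids are known to induce were gathered into a list after Fkbp5 and Zbtb16 had been seen to be low, so the list is no independent support. Of 17 genes 14 were measured, 5 were lower and none was higher by 2-fold or more. Of the 14, 8 had a ratio below 1 and 6 had a ratio above 1. The median was -0.75, and -0.35 without both kinds of nuclei. Fkbp5, a co-chaperone that restrains the glucocorticoid receptor, measured 166 CPM (161 to 172) at 2 months and 12.05 CPM (11.12 to 13.03) at 6 months. Zbtb16, a zinc-finger repressor, measured 1178 CPM (1163 to 1192) and 185 CPM (181 to 189). Fkbp5 was 13.8-fold and Zbtb16 6.37-fold lower at 6 months. Their log2 ratios were -3.14 and -2.57 in nuclei of neither kind.

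Klf15, a regulator of amino acid and lipid use, measured 57.8 CPM at 2 months and 13.5 CPM at 6 months. Klf9 measured 254 CPM and 115 CPM, and Cdkn1a, the gene of the cell cycle inhibitor p21, 22.9 CPM and 6.62 CPM. Not all members followed. Tsc22d3, the gene of GILZ, had a log2 ratio of -0.76, Per1 one of -0.97, and Pdk4 and Mt2 had ratios above 1 at 0.80 and 0.56. Nr3c1, the glucocorticoid receptor gene, measured 481 CPM and 517 CPM.

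The lower levels of Fkbp5 and Zbtb16 were not limited to adipocytes. In nuclei outside the adipocyte class Fkbp5 measured 895 CPM at 2 months and 350 CPM at 6 months, and Zbtb16 measured 3807 CPM and 630 CPM. After thinning, a Zbtb16 UMI was found in 88.6% of the outside nuclei at 2 months and 38.8% at 6 months, and in 50.6% and 13.2% of adipocyte nuclei. The adipocyte shares were below those outside in both libraries, and how much of this RNA came from other nuclei was not tested. At 1 month the adipocytes held more of both, with 401 CPM of Fkbp5 and 2420 CPM of Zbtb16.

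Clock genes showed no common direction, with 1 of 18 measured genes higher, 1 lower, and a median of 0.05. Bhlhe40, a repressor in the clock and an immediate target of many signals, measured 48.5 CPM at 2 months and 161 CPM at 6 months. Per2 measured 86.4 CPM and 40.2 CPM and Per1 62.2 CPM and 31.8 CPM. Nr1d1 was at 0.64 and Arntl at -0.28 on the log2 scale. The labels used here give no time of day. Of 9 measured immediate early and heat shock genes 3 were higher by 2-fold or more, namely Dusp1 at 1.85, Junb at 1.43 and Nr4a1 at 1.33, and without both kinds of nuclei 3 were higher and 1 lower. Outside nuclei also held more Junb at 6 months, 49.6 CPM against 4.91 CPM.

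**Figure D4:**
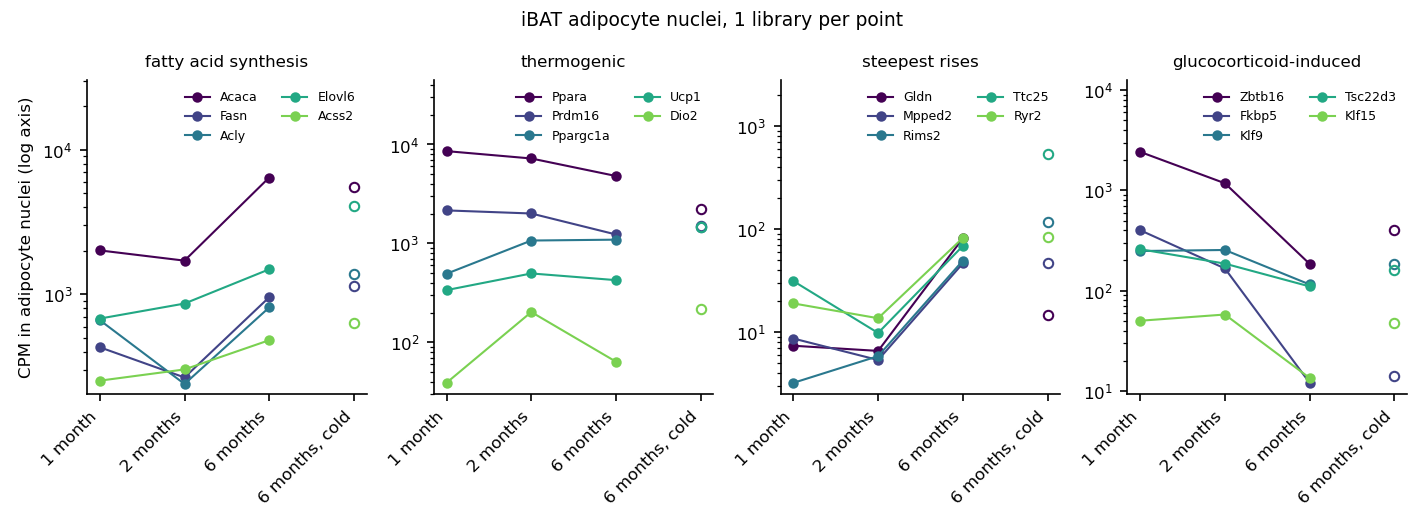
CPM of adipocyte nuclei on a log axis in the iBAT libraries. Filled points joined by lines are 1, 2 and 6 months as titled, and open points are 6 months after 3 days at 4 °C. The panels hold genes of fatty acid synthesis, thermogenic genes, the named genes with the highest ratios of 6 over 2 months, and glucocorticoid-induced genes. Each point is 1 library. Acaca stood at 2014, 1711, 6417 and 5561 CPM in this order and Fkbp5 at 401, 166, 12.05 and 14.03 CPM.

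The libraries of 1 month and of 6 months after 3 days at 4 °C give the levels on both sides of the comparison. They have 1 library each, and the cold and age comparisons share the room-temperature library of 6 months. Fasn measured 432 CPM at 1 month, 267 CPM at 2 months, 957 CPM at 6 months and 1140 CPM after cold. Acly measured 664, 241, 814 and 1392 CPM in the same order. For both enzymes the 2-month library was the lowest of the 4. Elovl6 measured 681, 865, 1491 and 4084 CPM, so cold went with a further higher level.

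Ucp1 measured 337 CPM at 1 month, 497 CPM at 2 months, 425 CPM at 6 months and 1454 CPM after cold. Dio2 measured 39.0, 202, 63.7 and 219 CPM, with the 2-month level close to that after cold. Ttc25 measured 31.3, 9.83, 68.5 and 539 CPM. Gldn measured 7.39, 6.58, 81.2 and 14.8 CPM, so it was high at 6 months at 22 °C and low in the other 3 libraries. Klf15 measured 50.1, 57.8, 13.5 and 48.0 CPM, the reverse pattern. Tfrc, the transferrin receptor through which cells take up iron, measured 1534 CPM at 1 month, 564 CPM at 2 months, 223 CPM at 6 months and 262 CPM after cold. Its levels at 22 °C were in order of age.

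Most measured white-adipocyte genes were lower at 6 months, by less without the Cyp2e1 and Slc7a10 nuclei. Of 12 genes 8 were measured, 5 were lower and 1 higher by 2-fold or more, and the median was -2.36. Without both kinds of nuclei it was -0.97, with 4 lower and 2 higher. The 4 lower include Cyp2e1 at -3.46 and Slc7a10 at -1.59, whose UMIs the cut itself limits. That median and count are thus partly set by the cut. Retn, the resistin gene, measured 34.7 CPM at 2 months and 4.75 CPM at 6 months, and Nnat 214 CPM and 58.7 CPM. Below the Cyp2e1 and Slc7a10 cut the log2 ratio of Retn was -1.61, that of Aldh1a1, a retinaldehyde dehydrogenase, -1.22 and that of Nnat -0.71. Above the cut the genes differed in direction, with Retn at -0.98, Aldh1a1 at 0.51 and Nnat at 0.32. Over all adipocyte nuclei Aldh1a1 measured 72.8 CPM at 2 months and 10.1 CPM at 6 months. It measured more outside the class, at 343 CPM and 335 CPM. Cyp2e1 and Slc7a10, which set the cut, were at -1.74 and -0.62 above it. Lep, the leptin gene, was at -0.29 over all adipocyte nuclei and at 1.27 without both kinds, and its direction turned with that choice. Npr3, the clearance receptor for natriuretic peptides, was the higher member. It measured 41.3 CPM and 118 CPM, and was higher both below the cut (27.8 CPM and 109 CPM) and above it (140 CPM and 591 CPM).

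**Figure D5:**
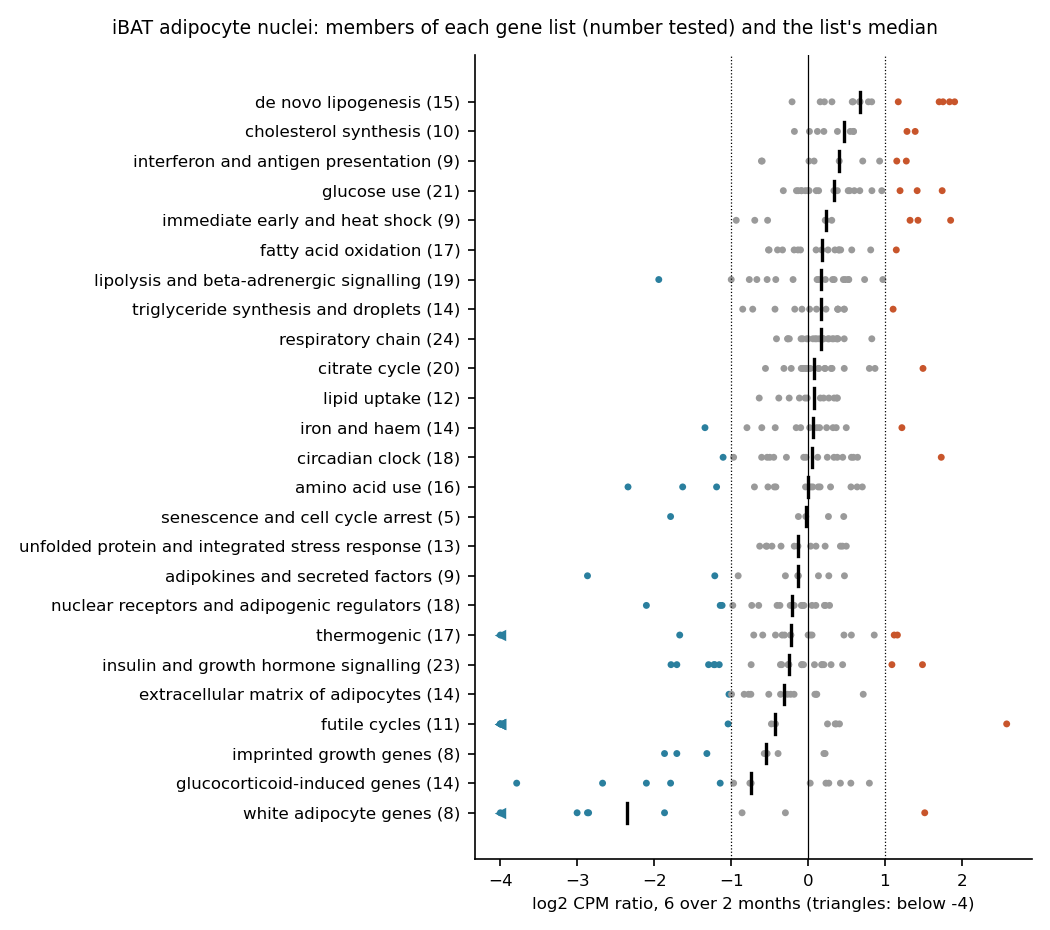
Log2 CPM ratio of 6 over 2 months for each measured member of each gene list, with the list's median as a black bar and the number measured in brackets. Colours mark members past 2-fold and triangles members below -4, which are muscle genes and Cyp2e1 at -4.31. De novo lipogenesis had a median of 0.68 and white adipocyte genes one of -2.36, while the respiratory chain had no member past the dotted 2-fold lines.

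Mitochondrial and lipid-handling genes mostly stayed within 2-fold. None of 24 genes of the respiratory chain passed it, and their median was 0.17. Of 17 measured genes of fatty acid oxidation 1 was higher, the peroxisomal enzyme gene Ehhadh, at 52.5 CPM at 2 months and 116 CPM at 6 months. None of 12 measured genes of lipid uptake passed, against 1 higher without both kinds of nuclei, among them Lpl, lipoprotein lipase, at 945 CPM and 609 CPM, and the fatty acid carrier Cd36 at 1273 CPM and 1648 CPM. Plin2, a droplet coat protein, was the 1 of 14 genes of triglyceride synthesis and droplets past 2-fold, at 260 CPM and 559 CPM.

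In lipolysis and β-adrenergic signalling 1 of 19 measured genes was lower and none higher by 2-fold or more. Adcy5, an adenylyl cyclase, measured 61.6 CPM at 2 months and 16.0 CPM at 6 months, and Adcy6 was at the edge with 251 CPM and 125 CPM, and passed it without both kinds of nuclei at -1.11. Adrb3, the β3-adrenergic receptor gene, measured 239 CPM and 280 CPM. In cholesterol synthesis 2 of 10 measured genes were higher, Fdft1, squalene synthase, at 1.39 and Dhcr7, the last reductase, at 1.29, and 4 were higher without both kinds of nuclei. Of 14 measured genes of iron and haem, Tfrc was lower at -1.34 and Slc40a1, the iron exporter ferroportin, higher at 1.22.

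Among nuclear receptors and adipogenic regulators 3 of 18 were lower, Klf15, Klf9 and Rxra, and none higher. Rxra, the partner of PPARγ, measured 66.7 CPM and 30.8 CPM, and came to -0.99 without both kinds of nuclei. Pparg, the master regulator of adipocytes, measured 3869 CPM and 4699 CPM. In amino acid use 3 of 16 were lower, Prodh, Bcat2 and Phgdh, and 2 without both kinds of nuclei, where Phgdh turned direction from -1.19 to 0.36. Bcat2, which starts the breakdown of branched-chain amino acids in mitochondria, measured 63.0 CPM and 20.4 CPM, whereas Slc25a44, their mitochondrial carrier, measured 42.3 CPM and 44.2 CPM. Peg3, an imprinted gene, was lower in nuclei below the Cyp2e1 and Slc7a10 cut, at 385 CPM and 149 CPM, and not above it, at 351 CPM and 386 CPM.

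Markers of other cell types than muscle were also measured inside the adipocyte class. At 2 and 6 months macrophage markers summed to 9.05 and 16.6 CPM, lymphocyte markers to 6.92 and 9.54 CPM, and stromal progenitor markers to 87.1 and 87.7 CPM. No macrophage or lymphocyte marker reached the 5 CPM minimum and none of them was at 0. Endothelial markers summed to 163 CPM and 341 CPM, of which Mecom gave 111 CPM and 311 CPM. Mural markers summed to 81.2 CPM and 37.2 CPM. Schwann cell markers summed to 212 CPM and 239 CPM, against 484 CPM and 449 CPM outside the class. Malat1, a nuclear RNA, measured 42652 CPM and 21756 CPM, and the mitochondrial transcript mt-Atp6 654 CPM and 1601 CPM, so RNA composition differed between the libraries. The part of these differences in the gene results was not tested.

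The same ages at 22 °C were sampled in 2 more depots, labelled mPRAT and lPRAT, which share no library with iBAT. The median mPRAT adipocyte nucleus held 1798 UMIs at 2 months and 6136.5 at 6 months, and the lPRAT one 955 and 6094. Of nuclei with 300 or more genes, 22.1% and 2.03% in mPRAT were over the mitochondrial limit. In lPRAT 21.4% and 5.29% were. The part of these differences in the depot ratios was not tested. Of 9631 genes tested in both iBAT and mPRAT, 404 (4.19%) were higher and 248 (2.58%) lower by 2-fold or more in mPRAT adipocytes at 6 months. Of the 460 iBAT genes that were higher, 97 were also higher in mPRAT, 21.1% of the iBAT genes and 24.0% of the mPRAT genes. Of 381 lower in iBAT, 79 were also lower in mPRAT, 20.7% and 31.9%. Against mPRAT, 24 of the 460 and 45 of the 381 went past 2-fold in the opposite direction. In lPRAT, 964 of 9312 genes (10.4%) were higher and 589 (6.33%) lower, with 71 of 409 and 68 of 359 iBAT genes on the same side and 50 and 68 on the opposite side.

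Among the members, Ryr2 and Dio2 had the same direction in mPRAT as in iBAT, with log2 ratios of 3.14 and -1.74. Mpped2, Tsku and Ctnna3 had the opposite direction, at 3.11, 2.17 and -3.31 in iBAT and at -0.98, -1.41 and 0.82 in mPRAT. Without both kinds of nuclei the iBAT ratio of Ctnna3 was -0.27, with an interval that included 0. Gldn was under the 5 CPM minimum in mPRAT, at 0.294 CPM and 1.86 CPM. Acaca was at 0.68 and Fasn at 0.91 in mPRAT, and at -0.75 and -2.03 in lPRAT. Fkbp5 was lower in all 3 depots, at -3.79 in iBAT, -2.21 in mPRAT and -1.22 in lPRAT. Zbtb16 was at -0.74 in mPRAT and at 0.20 in lPRAT. The median of the glucocorticoid-induced list was -0.38 in mPRAT and 0.14 in lPRAT. Foxo1 was at -0.61 in mPRAT and -0.05 in lPRAT. Each of these depot values compares 1 library with another, and the differences between depots were not tested.

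Non-coding genes made up 6.44% of the 10104 genes tested, 22.6% of the genes higher at 6 months (121 of 535) and 7.84% of the genes lower (40 of 510). Of the 121 that were higher, 42 were antisense genes, of 226 antisense genes tested. Gm28905, a long intergenic non-coding RNA, was the 1 non-coding gene among the 15 named as higher, at 10.4 CPM and 48.2 CPM.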

How the data were processed

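The authors deposited filtered matrices of UMI counts per gene and nucleus, per the file headers. Cell Ranger 7.0.0 and mm10 are named in the submitters' processing notes. Whether intronic reads were counted is not given in the sources used here. The members and gene lists were chosen with earlier results of these data known, and the glucocorticoid-induced list was made after Fkbp5 and Zbtb16 were seen.

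Counts were summed over the adipocyte nuclei of each library and divided by their total to CPM. A gene was tested, meaning measured, at a mean of 5 CPM or more over both libraries, and 2-fold was a ratio of at least 2 or at most 0.5. CPM carry exact Poisson intervals, ratios exact conditional binomial ones and shares Clopper-Pearson ones. With 1 library per group no test was made. Named genes had a mean of at least 20 CPM, lay outside the 12 genes of the rule and the mitochondrial genes, and were at least 2 times higher in adipocyte than in outside nuclei of the library where they were higher. The 15 largest and 15 smallest ratios were taken, with up to 4 members of each list and 11 genes fixed by name.

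Shares of adipocyte nuclei with a UMI used the 10096 nuclei at 2 months and 18761 at 6 months with fewer than 5 muscle UMIs. They were thinned to 1000 UMIs, and 1927 of them at 2 months and 1860 at 6 months were too shallow and left out. Doublets stayed in. Scrublet's own threshold marked 0 of 12509 and 1 of 21368 nuclei and had not worked, so removing the highest scores, 10.0% and 17.1% of nuclei, was an alternative. Gene positions came from GENCODE M21 on GRCm38, where 32158 of 32285 identifiers were found, and promoters from RefSeq on GRCm38.p6. The scripts were tested on simulated data. Python 3.11.15, NumPy 2.4.6, pandas 2.3.3, SciPy 1.17.1, scanpy 1.11.5 and matplotlib 3.10.9 were used, with edgeR 4.0.16 in R 4.3.3 for TMM factors only.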

Additional observations from a re-analysis of the deposited data

Results flagged for a closer look

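The genes below were past 2-fold in opposite directions in iBAT and another depot, among the 30 named genes, the 11 fixed by name and the measured list members other than Schwann cell markers. Each value compares 1 library with another, and the differences between depots were not tested. Over all genes tested in both depots, 24 higher and 45 lower iBAT genes were past 2-fold the other way in mPRAT, and 50 and 68 in lPRAT.

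Of genes higher in iBAT at 6 months, 3 of fatty acid synthesis were lower in lPRAT. Fasn had a log2 ratio of 1.84 in iBAT and -2.03 in lPRAT, Acly 1.76 and -2.03, and Scd2 1.71 and -1.86. In the same order Bhlhe40 had 1.73 and -2.85, Dusp1 1.85 and -1.89, and Junb 1.43 and -1.73. H2-K1 had 1.28 and -3.07, and Dhcr7 1.29 and -1.19. In mPRAT, Tsku had 2.17 in iBAT and -1.41 in mPRAT, and Mecom 1.49 and -1.64. The mitochondrial transcript mt-Atp6 had 1.29 in iBAT, -1.79 in mPRAT and -3.33 in lPRAT, and mt-Nd1 had 1.02, -1.42 and -2.97. The median mitochondrial share of adipocyte nuclei at 2 and 6 months was 0.424% and 0.667% in iBAT. It was 0.400% and 0.189% in mPRAT and 1.63% and 0.133% in lPRAT, and depth differed too, as given above.

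Of genes lower in iBAT, Gm17167 had -3.78 in iBAT and 2.58 in lPRAT, Peg3 -1.31 and 2.32, Retn -2.87 and 1.09, and Cyyr1, an endothelial marker, -1.40 and 1.12. Aldh1a1 had -2.85 in iBAT and 1.40 in mPRAT, Nnat -1.87 and 1.58, and Phgdh -1.19 and 1.62. Col15a1 had -1.03 in iBAT, 2.22 in mPRAT and 1.12 in lPRAT. Without the muscle-marker and the Cyp2e1 and Slc7a10 nuclei the iBAT ratios of Nnat (-0.71), Col15a1 (-0.90) and mt-Nd1 (0.85) were within 2-fold, that of Phgdh turned to 0.36, and Aldh1a1 and Retn came to -1.22 and -1.61.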

How the results depend on the processing

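No paired analysis was possible because each age is 1 library. Against 535 higher and 510 lower genes, adding 10 CPM to both levels gave 187 and 239, and no minimum level gave 2050 and 3618 of 21250. Leaving out both kinds of nuclei gave 653 and 362. TMM scaling gave 571 and 493, thinning 603 and 417, and removing likely doublets 536 and 530. The difference in adipocyte share, 6.49 points, was 11.2 with at least 6 adipocyte UMIs, 9.71 with at most 2% mitochondrial UMIs, 4.98 without muscle-marker nuclei, 11.3 without Cyp2e1 and Slc7a10 nuclei, 9.97 without both, 4.08 after thinning and 1.57 over nuclei the rule assigned. The differences in the share of nuclei with a UMI turned sign without thinning for Ghr (2.25 points), Ppargc1a (1.22 points) and Ucp1 (3.26 points), where the deeper 6-month library holds more UMIs a nucleus. The settings without muscle or Cyp2e1 and Slc7a10 nuclei were chosen after seeing the data. Of the log2 ratios recomputed for the named genes and the 11 genes fixed by name, 330 values stayed within their counting interval and 190 moved. The cause of other changes was not tested.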

Other observations

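Antigen presentation genes, not described above, were higher in part, with 2 of 9 measured genes past 2-fold and a median log2 ratio of 0.41. The list summed to 409 CPM and 611 CPM in adipocyte nuclei. Outside the class it summed to 726 CPM and 1286 CPM, so it was also higher at 6 months there. H2-K1, a class I histocompatibility gene, measured 62.5 CPM at 2 months and 152 CPM at 6 months, and Cd274, the gene of PD-L1, 49.8 CPM and 111 CPM. Of 13 measured genes of the unfolded protein and integrated stress response none passed 2-fold. Of 14 measured matrix genes 1 was lower, Col15a1, a basement membrane collagen, at 22.5 CPM and 11.04 CPM, and none was past 2-fold without both kinds of nuclei.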
